A study of Rattus norvegicus with 72 samples.

Results

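The genes described here make cholesterol and fatty acids or set how active that synthesis is. They were listed by pathway as 29 gene symbols, and each was represented by its brightest probe set (highest mean over all 72 arrays) among those annotated to exactly 1 gene symbol. Of the 29, 28 had such a probe set, out of 14217 genes named in the same way; Hmgcs1 was not analysed here. The 28 comprised 19 genes of the sterol pathway, 5 of fatty acid synthesis, and 4 regulators or carriers of sterols. All 28 also lay above the filter on dim probe sets (mean of 5.46 on the log2 scale), which left 12276 genes for testing.

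The arrays measured total RNA of the L4 and L5 dorsal root ganglia, where the cell bodies of sciatic sensory neurons lie among Schwann cells, satellite glia, macrophages and vessels. The animals were Wistar rats aged 8 to 12 weeks, with no transgene or drug named. They had a crush of the sciatic nerve near the ganglia (proximal, 22 arrays), a crush far from them (distal, 29 arrays) or the surgery labelled Sham (21 arrays). Ganglia were taken 1, 3 or 8 h after surgery (called early here), 12 or 16 h (middle), or 18, 24 or 28 h (late), with 1 to 6 arrays for each surgery and hour. The protocols speak of crush-lesioned animals for every array and do not describe the sham surgery, and no untouched animals are among the labels. They do not say whether arrays of a group came from separate animals or from pools, so the p-values measure only the spread between these arrays. In bulk tissue, fewer cells of a type and less RNA per cell cannot be told apart.

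Cholesterol is built from acetyl-CoA through mevalonate, isoprenoid diphosphates, squalene and lanosterol, and fatty acids are built from acetyl-CoA through malonyl-CoA. The transcription factors SREBP, encoded by Srebf1 and Srebf2, turn on both pathways when sterol in the endoplasmic reticulum is low, and Insig1 holds them back when it is high. In peripheral nerve, these enzymes serve above all the myelin of Schwann cells, and neurons need membrane lipid to regrow axons.

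The arrays were split into 4 sets (A to D, called technical sets here) by clustering them on the probe sets below the filter. The number 4 was a setting of the clustering, so a finer batch within a set would not show, and the labels name no batch. All 23 distal arrays titled with the letters a, b or c were in set A, which held 27 distal arrays and no sham or proximal array. The other 6 distal titles have a letter followed by o, whose meaning the labels do not give; 4 of them were in set A, 1 in B and 1 in D. Sham and proximal arrays of 3 and 8 h were all in set B, those of 1, 24 and 28 h all in set C, and those of 12, 16 and 18 h were split between B and D. The course within the 23 distal arrays a to c therefore lies in 1 set, whereas distal against sham or proximal levels cannot be told apart from the sets, nor can most of the sham and proximal courses. The libraries labelled sham 12 h b and sham 16 h a had Atf3, a transcription factor induced by axon injury, at 11.55 and 9.97 log2, against 7.32 in sham 12 h a. Sham 12 h a, the 1 sham array left at 12 h without 12 h b, was itself set apart in Gadd45a, at 7.93 log2. Every other array had Gadd45a at 9.33 or above. Of the late sham arrays, 24 h c (10.16), 28 h a (10.15), 18 h c (9.46) and 24 h b (9.30) also had Atf3 at 9 or above, and the other 15 sham arrays were at 8.45 or below. Comparisons of the 28 genes with sham are given below without these libraries as well. The exception is proximal against sham at 16 h, where sham 16 h a is the 1 sham array. The limit of 9 was chosen after seeing the data. Some counts with arrays left out have no share of all genes beside them. Such counts do not tell a change among the 28 from a change among all genes. Array medians lay between 6.88 and 7.08 log2. The interquartile range over all probe sets of an array differed by set. It ran from 3.51 to 3.73 log2 in set A, 2.73 to 3.14 in B, 3.12 to 3.39 in C and 3.60 to 3.77 in D. The deposited values of the sets thus did not share 1 spread.

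Within the distal arrays, most of the genes were higher from 12 h on than before. At 12 and 16 h, 17 of the 28 rose over 1, 3 and 8 h and none fell (limma, Benjamini-Hochberg adjusted p under 0.05 over all genes tested), where 4.76% of the 12276 genes were called higher, 2.95% lower and 7.71% in either direction. At 18, 24 and 28 h, 21 rose over the early hours, 1 fell and 6 did not pass, where 32.1% of all genes were called higher, 16% lower and 48.1% in either direction. The median difference of the 28 was 0.23 log2 at the middle hours and 0.28 at the late hours, beside 0.0026 and 0.056 over all genes. Every late array lay above every early array for 11 of the 28, as for 5.62% of all genes, and 2.02% of all genes were lower without overlap. Middle against early, 0 of the 28 were without overlap, against 0.603% of all genes higher and 0.22% lower. The highest late differences were those of Mvd (0.73 ± 0.071 SE, 1.66-fold), Hsd17b7 (0.64 ± 0.063, 1.56-fold), Aacs (0.55 ± 0.065, 1.46-fold), Stard4 (0.54 ± 0.080) and Dhcr7 (0.53 ± 0.075).

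By arm, 13 of 19 sterol genes, 1 of 5 fatty acid genes and 3 of 4 regulators or carriers rose at the middle hours. At the late hours the counts were 15 of 19, 2 of 5 and 4 of 4, and the gene that fell, Ggps1, is in the sterol group. The middle count rests on 5 arrays: it was 7 without distal 16 h b, 11 without 16 h c and 11 without 12 h a. It was 4 when the 6 distal arrays with o were added, with 1.45% of all genes called. The late count was then 17 higher and 1 lower, where 28.5% of all genes were called and 16.4% called higher. The share of all genes called without 16 h b, 16 h c or 12 h a is not given here. Those counts therefore do not tell calls lost among the 28 from calls lost among all genes.

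**Figure D1:**
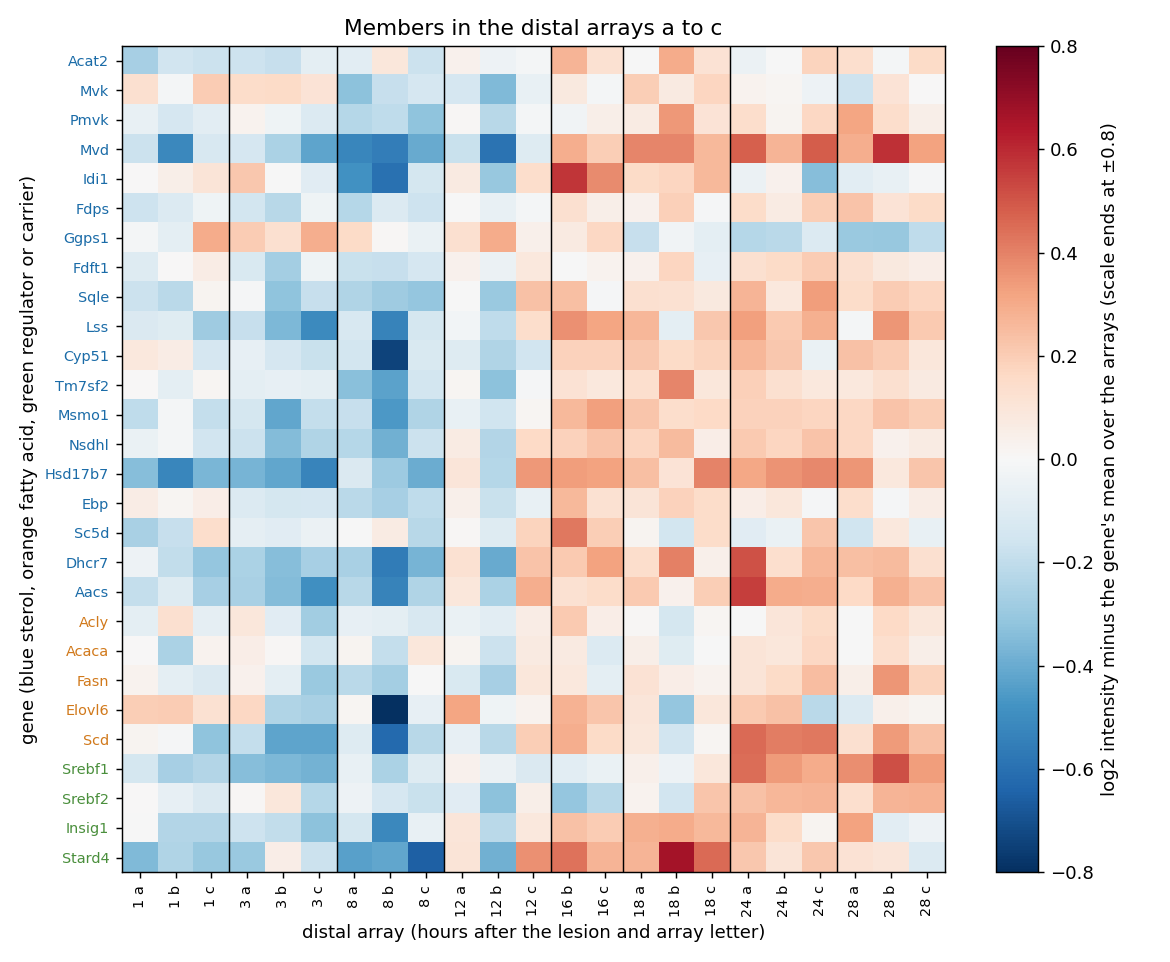
Each column is 1 of the 23 distal arrays a to c, ordered by hour, and each row 1 of the 28 genes. The colour gives the log2 intensity minus the gene's mean over these arrays, and most rows turn from blue at 1 to 8 h to red from 16 h on, with 12 h b low and Ggps1 running the other way.

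The first steps make mevalonate and turn it into the isoprenoid units. Acat2, the thiolase that joins acetyl-CoA units, ran from 11.21 to 11.56 (median 11.31) on the 9 early arrays, was at 11.51, 11.43, 11.46, 11.74 and 11.60 on the 5 middle ones, and ran from 11.42 to 11.77 (median 11.59) on the 9 late ones. Of the early arrays only 8 h b, at 11.56, reached the late range, and Acat2 rose in both windows (0.23 ± 0.054, adjusted p = 0.0113, and 0.22 ± 0.045, adjusted p = 0.000394). Mvk, the kinase that first phosphorylates mevalonate, did not pass in either window (late difference 0.034 ± 0.050): it was lower at 8 h (8.94, 9.08 and 9.13) than at 3 h (9.41, 9.41 and 9.37), and that step passed (-0.35 ± 0.086, adjusted p = 0.0215). Pmvk, the next kinase, passed at the late hours (0.28 ± 0.046) and not at the middle hours (0.094 ± 0.055).

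Mvd, which decarboxylates the product to isopentenyl diphosphate, showed the largest change of the 28 at the late hours. Its early values ran from 8.39 to 8.82 log2 (median 8.54), its middle values were 8.76, 8.35 and 8.84 at 12 h and 9.23 and 9.14 at 16 h, and its late values ran from 9.20 to 9.53 (median 9.33). Every late array lay above every early array, and the 12 h arrays lay close to the early range. The step from 12 to 16 h passed for Mvd (0.54 ± 0.14, adjusted p = 0.0312), as did late against middle (0.41 ± 0.085, adjusted p = 0.00112).

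Idi1, the isomerase that follows, was highest at 16 h by its brightest probe set. It was at 12.12, 12.17 and 12.22 at 1 h, fell from 3 h (12.34, 12.12 and 12.03) to 8 h (11.64, 11.53 and 11.98; -0.45 ± 0.11, adjusted p = 0.0247), and was at 12.69 and 12.50 at 16 h. The 16 h arrays were above all others, the 12 to 16 h step passed (0.50 ± 0.13, adjusted p = 0.0280), and the late arrays (11.78 to 12.38) lay back in the early range but for 18 h c, at 12.38, with late below middle (-0.21 ± 0.079, adjusted p = 0.0442). A dimmer Idi1 probe set stayed up late, with differences from early of 0.35 at the middle and 0.36 at the late hours, so the late course of Idi1 differs between its probe sets.

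Fdps and Ggps1 sit at the branch of the pathway. Fdps, which makes farnesyl diphosphate, ran from 12.38 to 12.58 on the early arrays, stood at 12.61, 12.55, 12.60, 12.74 and 12.66 on the middle ones and ran from 12.60 to 12.84 on the late ones. It rose in both windows (0.17 ± 0.040 and 0.26 ± 0.033, adjusted p = 1.67e-06), and all late arrays were above all early ones. Ggps1, which makes geranylgeranyl diphosphate for protein prenylation and so leads away from sterol, was the 1 member of the 28 that fell by its brightest probe set: it ran from 8.88 to 9.25 early (median 9.09), stood between 9.03 and 9.26 on 4 middle arrays and just below them on 12 h c and ran from 8.66 to 8.93 late (median 8.76). The late difference was -0.28 ± 0.054 (adjusted p = 0.000186), and it arose after 16 h, since late against middle was -0.32 ± 0.065.

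Squalene and lanosterol are made by 3 enzymes, which rose together at the late hours. Fdft1, squalene synthase, had 10.90 to 11.23 early, 11.20, 11.12, 11.25, 11.17 and 11.20 at the middle hours and 11.10 to 11.37 late; only the late rise passed (0.21 ± 0.037). Sqle, squalene epoxidase and a control point of the pathway, had 10.98 to 11.32 early, 11.29, 11.002 and 11.53 at 12 h, 11.54 and 11.29 at 16 h and 11.38 to 11.63 late, which no early array reached (0.36 ± 0.059, adjusted p = 3.20e-05). Lss, which closes the ring to lanosterol, had 9.93 to 10.37 early, 10.44, 10.27, 10.60, 10.83 and 10.78 at the middle hours and 10.39 to 10.82 late, again without overlap of early and late (0.46 ± 0.068, adjusted p = 9.84e-06). The middle rise passed for Sqle (0.24 ± 0.071) and Lss (0.42 ± 0.081).

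The largest group of genes turns lanosterol into cholesterol. Msmo1, Nsdhl and Hsd17b7 act in turn to remove methyl groups from the ring, and all 3 rose at the middle and the late hours with no overlap of late and early arrays. Msmo1 ran from 11.96 to 12.41 early, stood at 12.37, 12.27 and 12.44 at 12 h and 12.69 and 12.76 at 16 h, and then stayed between 12.57 and 12.66 on all 9 late arrays (0.41 ± 0.041, adjusted p = 5.20e-08). Its step from 12 to 16 h was one of 3 that passed among the 28 (0.36 ± 0.079, adjusted p = 0.0125).

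Hsd17b7 ran from 9.60 to 10.01 early, was at 10.22, 9.90 and 10.47 at 12 h and at 10.46 and 10.44 at 16 h, and ran from 10.21 to 10.52 late. At the middle hours it changed more than any other of the 28 (0.57 ± 0.076, 1.49-fold, adjusted p = 4.66e-05), and its late level was like its middle level (difference 0.073 ± 0.076). Nsdhl ran from 10.58 to 10.95 early, was at 11.03, 10.73, 11.12, 11.15 and 11.19 at the middle hours, and ran from 10.999 to 11.22 late (0.35 ± 0.048, adjusted p = 4.35e-06). In all 3 genes distal 12 h b was the lowest of the middle arrays.

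Cyp51, the demethylase that opens this stage, passed at the late hours (0.32 ± 0.064) and not at the middle hours (0.16 ± 0.077); distal 8 h b, at 11.46, was far below the other 8 early arrays, which ran from 12.03 to 12.29. Tm7sf2, a sterol reductase, likewise rose late (0.28 ± 0.051), from 9.68 to 10.13 early to 10.18 to 10.50 late without overlap. Ebp, the sterol isomerase, rose by 0.17 ± 0.048 and 0.19 ± 0.040 in the 2 windows, with ranges of 8.93 to 9.25 early and 9.18 to 9.38 late.

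Sc5d, the desaturase before the last step, passed only at the middle hours and only just (0.24 ± 0.075, adjusted p = 0.04997); its late difference was 0.070 ± 0.063. Leaving out any 1 of 17 arrays ended that call, and the dimmer Sc5d probe sets differed by -0.15 and -0.27 at those hours. Dhcr7, the reductase that yields cholesterol, ran from 9.29 to 9.81 early, was at 9.97, 9.45 and 10.08 at 12 h and 10.06 and 10.17 at 16 h, and ran from 9.90 to 10.36 late (0.53 ± 0.075, adjusted p = 6.84e-06). Aacs, which activates the ketone body acetoacetate for lipid synthesis, ran from 9.15 to 9.57 early, was at 9.77, 9.43 and 9.97 at 12 h and 9.80 and 9.82 at 16 h, and ran from 9.71 to 10.23 late (adjusted p = 5.89e-07). For Dhcr7 and Aacs every late array was above every early array.

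Fatty acid synthesis changed in fewer genes. Acly, which makes cytosolic acetyl-CoA from citrate, and Acaca, which carboxylates it to malonyl-CoA, did not pass in either window: the late differences were 0.11 ± 0.046 (adjusted p = 0.0620) and 0.097 ± 0.050 (adjusted p = 0.117). Fasn, the synthase itself, rose at the late hours, from 10.999 to 11.33 early to 11.33 to 11.65 late (0.25 ± 0.055, adjusted p = 0.000673), and stood at 11.17, 11.03, 11.39, 11.38 and 11.22 at the middle hours. Elovl6, which lengthens palmitate, did not pass (0.10 ± 0.11 late), and its sign rested on distal 8 h b, at 9.93 against 10.68 to 11.14 on the other early arrays: without that array the late difference was -0.0052.

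Scd, the desaturase that makes monounsaturated fatty acids, rose in both windows. It ran from 10.51 to 11.15 early (median 10.91), was at 11.06, 10.91, 11.32, 11.42 and 11.28 at the middle hours, and late it was at 11.22, 10.98 and 11.15 at 18 h, 11.58, 11.54 and 11.55 at 24 h and 11.26, 11.47 and 11.36 at 28 h. The 18 h arrays lay near the top of the early range or just above it, the 24 h arrays lay clearly above it, and that step passed (0.44 ± 0.12, adjusted p = 0.0335). The late difference was 0.47 ± 0.069 (adjusted p = 9.20e-06).

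Among the regulators, Insig1, Stard4 and Srebf1 all passed at the middle hours. By hour means, Insig1 and Stard4 were highest at 18 h, Srebf2 at 24 h and Srebf1 at 28 h. Insig1, the brake on SREBP and itself one of its targets, ran from 10.27 to 10.79 early, was at 10.88, 10.57 and 10.87 at 12 h and 11.02 and 10.99 at 16 h, and late it was at 11.07, 11.09 and 11.05 at 18 h and between 10.70 and 11.11 at 24 and 28 h. The middle (0.31 ± 0.079, adjusted p = 0.0161) and late (0.37 ± 0.066, adjusted p = 7.52e-05) rises passed, and at 28 h Insig1 b and c, at 10.70 and 10.75, were back in the early range. Stard4, a carrier that moves sterol between membranes, ran from 8.59 to 9.30 early, was at 9.35, 8.86, 9.61, 9.68 and 9.52 at the middle hours and ran from 9.14 to 9.91 late (0.50 ± 0.096 and 0.54 ± 0.080).

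Srebf1 encodes the SREBP form tied most to fatty acid genes and Srebf2 the form tied most to sterol genes. Srebf1 ran from 8.87 to 9.19 early, was at 9.28, 9.20, 9.14, 9.17 and 9.19 at the middle hours, at 9.29, 9.21 and 9.34 at 18 h, at 9.70, 9.59 and 9.55 at 24 h and at 9.62, 9.77 and 9.58 at 28 h. Every late array was above every early array, the 24 and 28 h arrays stood apart above the rest, and the step from 18 to 24 h passed (0.33 ± 0.074, adjusted p = 0.0116). The middle difference of Srebf1 passed as well (0.18), and leaving out any 1 of 6 arrays ended that call. Its late difference was 0.51 ± 0.043 (adjusted p = 4.69e-09). Srebf2 ran from 9.87 to 10.19 early, was at 10.01, 9.77, 10.15, 9.79 and 9.88 at the middle hours (-0.12 ± 0.067, adjusted p = 0.303) and ran from 9.95 to 10.38 late (0.24 ± 0.056, adjusted p = 0.00101). For Srebf2 the rise lay after 16 h, with late above middle by 0.37 ± 0.067.

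**Figure D2:**
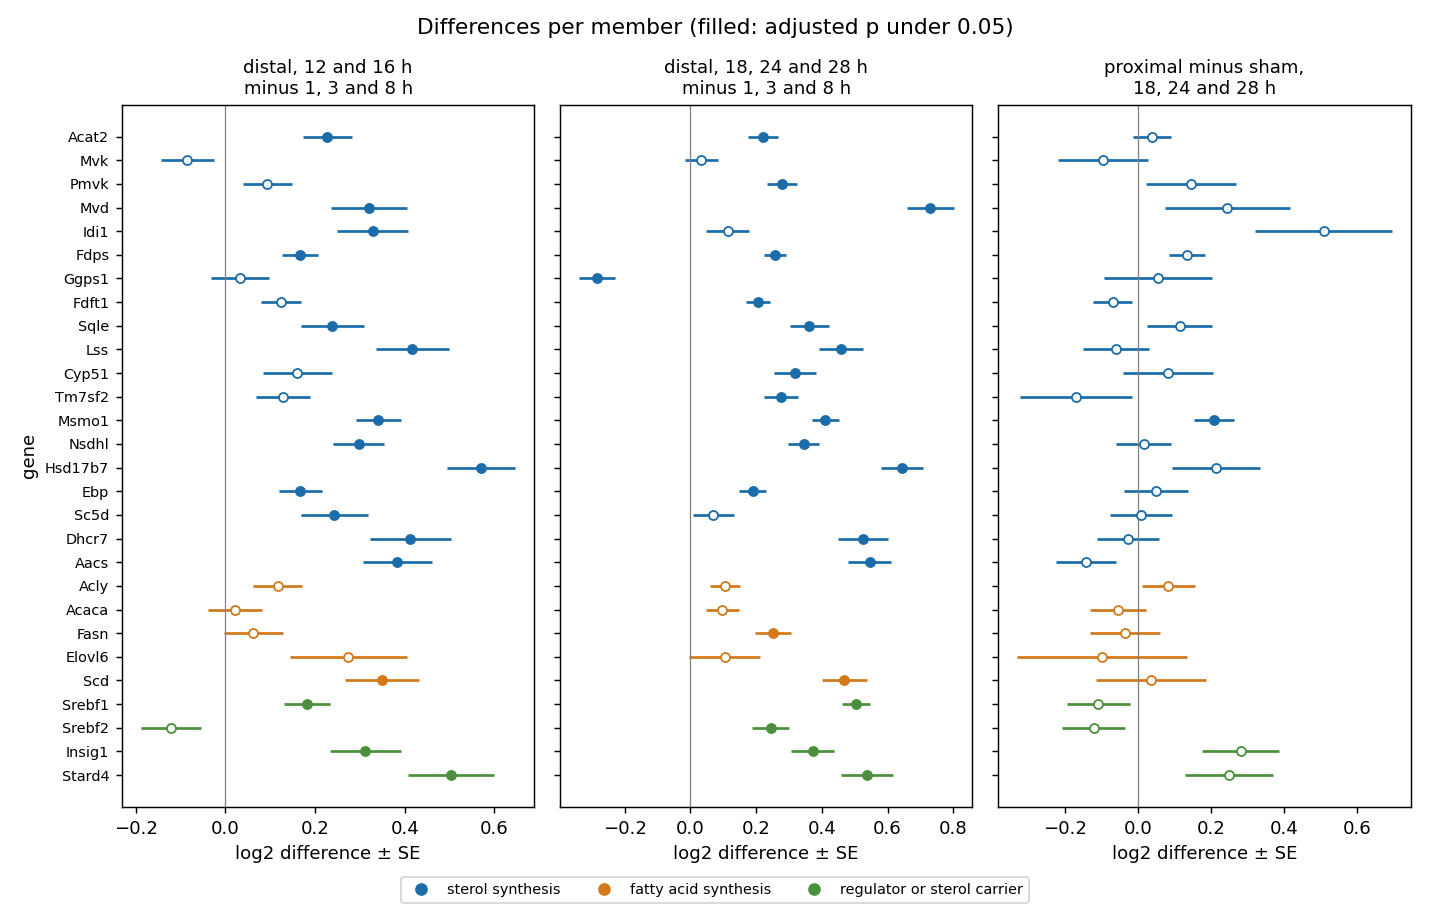
Each point is the log2 difference of 1 of the 28 genes with its standard error, filled where the adjusted p was under 0.05. In the distal arrays 17 genes are filled at 12 and 16 h and 22 at 18 to 28 h, with Ggps1 alone on the negative side; for proximal against sham, Msmo1 alone is filled.

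Hour by hour, the 28 genes were lowest at 8 h and highest from 16 h on. The mean deviation of the 28 from each gene's mean over the distal arrays was -0.093 log2 at 1 h, -0.15 at 3 h and -0.24 at 8 h. It was -0.035 at 12 h, 0.16 at 16 h, 0.12 at 18 h, 0.17 at 24 h and 0.12 at 28 h. The lowest hour was 8 h for 17 of the 28, and the highest was 16 h for 10 and 24 h for 9.

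Few steps between neighbouring hours passed. None of the 28 passed from 1 to 3 h, 16 to 18 h or 24 to 28 h, where 0%, 9.98% (7.01% higher, 2.97% lower) and 0% of all genes were called (2, 3 and 0 of the 28 at an unadjusted p under 0.05). From 3 to 8 h Mvk and Idi1 fell, where 3.92% of all genes were called higher and 1.66% lower (5.58% together). From 12 to 16 h Mvd, Idi1 and Msmo1 rose, where 0.929% were called higher and 2.88% lower (3.81%). From 18 to 24 h Srebf1 and Scd rose, where 3.54% were called higher and 1.91% lower (5.45%). These calls rest on single arrays: none of the 28 passed from 3 to 8 h without 3 h a, 3 h b or 8 h a, from 12 to 16 h without 12 h b, 16 h b or 16 h c, or from 18 to 24 h without 18 h b or 24 h a. From 8 to 12 h none passed, where 0.0244% of all genes were called, although 26 of the 28 differences were positive and 15 had an unadjusted p under 0.05. Without distal 12 h b, 6 passed, and the share of all genes called without it is not given here. Over the whole course by an F test across the 8 hours, 24 of the 28 changed, where 46.9% of all genes were called; Sc5d, Acly, Elovl6 and Acaca did not pass.

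The 12 h arrays were unlike one another. Their mean deviations were 0.016 for a, -0.20 for b and 0.081 for c, and Atf3 stood at 9.71, 8.69 and 10.60 on the same arrays. At 16 h, by contrast, both arrays stood above all 9 early arrays for 18 of the 28 genes, as for 4.55% of all genes. Late against middle, 5 of the 28 rose (Mvd, Pmvk, Fasn, Srebf1 and Srebf2) and 2 fell (Idi1 and Ggps1), where 20.8% of all genes were called higher and 8.89% lower, 29.7% together.

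Other genes moved across the same distal hours, and their part in these differences was not tested. Genes of skeletal muscle were high on some arrays: 7 of 10 tested markers were called higher and 1 lower late against early, with a median of 1.69 log2. Ckm, the creatine kinase of muscle, named after its values were seen, stood at 8 or above on 8 of the 23 distal arrays a to c, 11.11 on 8 h c, 9.76 on 16 h b and 10.76 to 10.86 at 18 h among them. The summed level of the muscle list ran from 12.97 to 15.03 early, 13.07 to 14.43 middle and 12.99 to 14.88 late, and its 3 brightest genes include Pvalb and Myh1, which these ganglia hold at 11.73 and 11.51 on average; the other is Acta1 (1.09 ± 0.47, adjusted p = 0.0596). On the 15 distal arrays left without those 8, 19 of the 28 genes rose and 1 fell late against early (36.1% of all genes called). The middle count was then 2, where 1.47% of all genes were called, on 3 arrays.

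The clock genes also moved with the hour. Dbp, named after its values were seen, was at 8.25 at 8 h, 6.71 at 16 h and 8.95 at 28 h, and Nr1d1 at 7.32, 5.54 and 7.80. The time of day is not in the labels, and for a distal course read alone the hour after the crush and the time of day cannot be told apart. Atf3 rose from a mean of 7.96 at 8 h to 9.67 at 12 h, 11.88 at 16 h and 12.36 at 28 h.

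Markers of other cell types changed in both directions, and their part was not tested; the counts stand beside 32.1% of all genes called higher and 16% lower. Of 12 Schwann cell genes tested, 5 rose and 3 fell late against early, and their summed level ran from 15.54 to 15.82 early and 15.56 to 15.70 late. The 3 brightest did not pass: Pmp22 (0.054 ± 0.024), Mbp (-0.080 ± 0.039) and Prx (0.058 ± 0.056). Of 18 sensory neuron genes, 1 rose and 8 fell, with Nefh not called (-0.049 ± 0.038) and small differences in Nefl and Nefm (-0.088 ± 0.019 and -0.089 ± 0.024).

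Of 8 satellite glia genes 5 rose and 1 fell (Apoe 0.15 ± 0.036, S100b -0.015 ± 0.020, Glul -0.18 ± 0.065), and of 12 macrophage genes 6 rose and 2 fell (Fcer1g 0.64 ± 0.081, Csf1r 0.13 ± 0.076, Mrc1 -1.18 ± 0.13). Of 4 adipocyte genes above the filter 2 rose (Lpl 0.24 ± 0.088; Lipe 0.093 ± 0.082; Cfd 0.098 ± 0.11), and the other 6 of the 10 named stayed below it. Of 7 endothelial genes 3 rose (Kdr 0.27 ± 0.079, Esam 0.21 ± 0.068; Cldn5 -0.054 ± 0.062), and of 3 erythrocyte genes 2 fell (Hbb -0.59 ± 0.16, Alas2 -0.68 ± 0.16; Slc4a1 -0.13 ± 0.11).

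Because these genes moved together, their promoters are shown for the 3 largest late changes among those with an entry, Mvd, Hsd17b7 and Aacs, and for Insig1, the brake on SREBP. Each is a window of 300 bases that spans the RefSeq start, most of it upstream, in build GRCr8, 5′ to 3′ on the gene's strand. Capitals mark ATTGG or its reverse complement (the box bound by NF-Y, a partner of SREBP) and CACGTG (an E-box, a motif SREBP can also bind).
Mvd promoter (chr19:67414925-67415224, minus strand): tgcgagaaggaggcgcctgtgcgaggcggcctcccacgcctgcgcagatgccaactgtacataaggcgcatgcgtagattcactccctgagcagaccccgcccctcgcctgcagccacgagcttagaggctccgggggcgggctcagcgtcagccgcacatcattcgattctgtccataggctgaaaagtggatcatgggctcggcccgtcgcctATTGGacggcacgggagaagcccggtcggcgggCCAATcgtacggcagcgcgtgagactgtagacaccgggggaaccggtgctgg
Hsd17b7 promoter (chr13:84722705-84723004, minus strand): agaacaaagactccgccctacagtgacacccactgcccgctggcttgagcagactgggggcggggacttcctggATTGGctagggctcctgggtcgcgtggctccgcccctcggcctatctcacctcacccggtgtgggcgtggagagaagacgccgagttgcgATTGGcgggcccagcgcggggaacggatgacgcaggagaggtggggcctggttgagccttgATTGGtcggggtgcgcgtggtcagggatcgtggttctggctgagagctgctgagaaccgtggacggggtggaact
Aacs promoter (chr12:36817725-36818024, minus strand): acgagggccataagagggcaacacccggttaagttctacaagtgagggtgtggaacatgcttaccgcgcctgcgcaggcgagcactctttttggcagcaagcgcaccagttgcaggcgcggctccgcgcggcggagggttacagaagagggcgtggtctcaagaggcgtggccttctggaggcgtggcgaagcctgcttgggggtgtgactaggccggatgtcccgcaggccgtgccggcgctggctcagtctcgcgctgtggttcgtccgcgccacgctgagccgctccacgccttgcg
Insig1 promoter (chr4:8057720-8058019, minus strand): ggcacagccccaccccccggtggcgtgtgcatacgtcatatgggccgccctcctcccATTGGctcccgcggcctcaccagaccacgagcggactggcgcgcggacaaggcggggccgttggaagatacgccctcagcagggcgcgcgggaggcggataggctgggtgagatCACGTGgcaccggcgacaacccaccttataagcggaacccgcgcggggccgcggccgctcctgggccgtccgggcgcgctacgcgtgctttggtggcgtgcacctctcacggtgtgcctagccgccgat
The Hsd17b7 window holds 3 NF-Y boxes, the Mvd window 2, the Insig1 window 1 with 1 E-box, and the Aacs window none of either.

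Over the 21 of the 28 genes with an entry, 16 (76.2%) held ATTGG on either strand, against 37.5% of the 33469 promoters in the table. CACGTG stood in Sc5d and Insig1 (9.52%, against 6.42%), and TCACNCCAC, 1 spelling of the sterol response element, in none (0%, against 1.12%). The 3 words were searched on both strands and counted apart, so overlapping matches would count for each. A match is only those letters in that window. Pmvk, Fdft1, Sqle, Acaca, Fasn, Elovl6 and Stard4 had no entry.

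The subunits of NF-Y were themselves measured, in a wider list of 29 genes of sterol and fatty acid handling outside the 28, of which 24 were tested. In the distal arrays 16 of the 24 rose and 1 fell late against early (median 0.19 log2), and 6 rose and none fell at the middle hours, beside the 32.1% higher, 16% lower and, at the middle hours, 4.76% higher of all genes. The 6 called with the largest late differences were Nfya and Nfyb, which encode NF-Y subunits (0.81 ± 0.11 and 0.56 ± 0.067), and Fads1 and Fads2, which desaturate polyunsaturated fatty acids (0.63 ± 0.058 and 0.42 ± 0.10). The other two were Lpin1, a phosphatidate phosphatase (0.60 ± 0.052), and Acss2, which makes acetyl-CoA from acetate (0.54 ± 0.049, adjusted p = 1.16e-08). Acss2 also rose proximal against sham at the late hours (0.34 ± 0.061).

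Genes of sterol export, storage and oxidation changed late as well: of 17 tested, 9 rose and 2 fell, and none passed at the middle hours (all genes: 32.1% higher and 16% lower late, 7.71% called at the middle hours). Ch25h, which makes an oxysterol, rose by 1.11 ± 0.15, Abca1, a sterol exporter, by 0.84 ± 0.18, and Nr1h3, the oxysterol receptor LXR alpha, by 0.60 ± 0.098, while Abcg1, another exporter, fell by 0.65 on the log2 scale (SE 0.054). Proximal against sham at the late hours, Abca1 (1.06 ± 0.20) and Ch25h (0.66 ± 0.16) rose and Abcg1 changed by -0.66 ± 0.12.

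The sham and proximal arrays were also compared over the same windows. In sham arrays 9 of the 28 rose and none fell at the middle hours (30.8% of all genes called), and 18 rose and 2 fell late against early (40.3%). The sham middle count rested on 2 of its 3 arrays: without the libraries labelled 12 h b and 16 h a, with 12 h a alone, 1 rose and 2 fell (6.88% of all genes called), that array being assumed to vary like the others. Without the 4 late sham arrays with high Atf3, and those 2, the late count was 19 higher and 2 lower. In proximal arrays the counts were 9 and none (6.74%), and 15 and 2 (33.6%). Elovl6 and Idi1 were the 2 that fell in both: sham late against early gave -1.26 ± 0.23 and -0.995 ± 0.19. By F test 21 of the 28 changed over the sham hours and 23 over the proximal hours, where 53.6% and 50% of all genes were called; the sham count was 20 without 12 h b and 16 h a, and 23 without all 6. These windows span technical sets in both surgeries: the mean deviation of the 28 was between -0.58 and -0.35 on the 6 sham arrays of 3 and 8 h, all in set B, and on the 12 h sham arrays -0.42 for a (set B) and 0.25 for b (set D).

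Middle against early, no gene of the 28 differed between distal and sham (9.74% of all genes called; 4 of the 28 at an unadjusted p under 0.05). With the libraries labelled sham 12 h b and 16 h a left out, and 12 h alone compared, 3 did (4.01% of all genes). With all arrays the median difference of the 28 was -0.062 log2 and that of all genes -0.12. Without those libraries, at 12 h alone, the medians were 0.20 and 0.11. With all arrays quantile-normalized again, 5 of the 28 were higher and none lower in distal, where 11.1% of all genes were called. The median was then 0.095 (all genes -0.0059). The count and the sign of the median thus depended on the scaling and on those libraries.

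**Figure D3:**
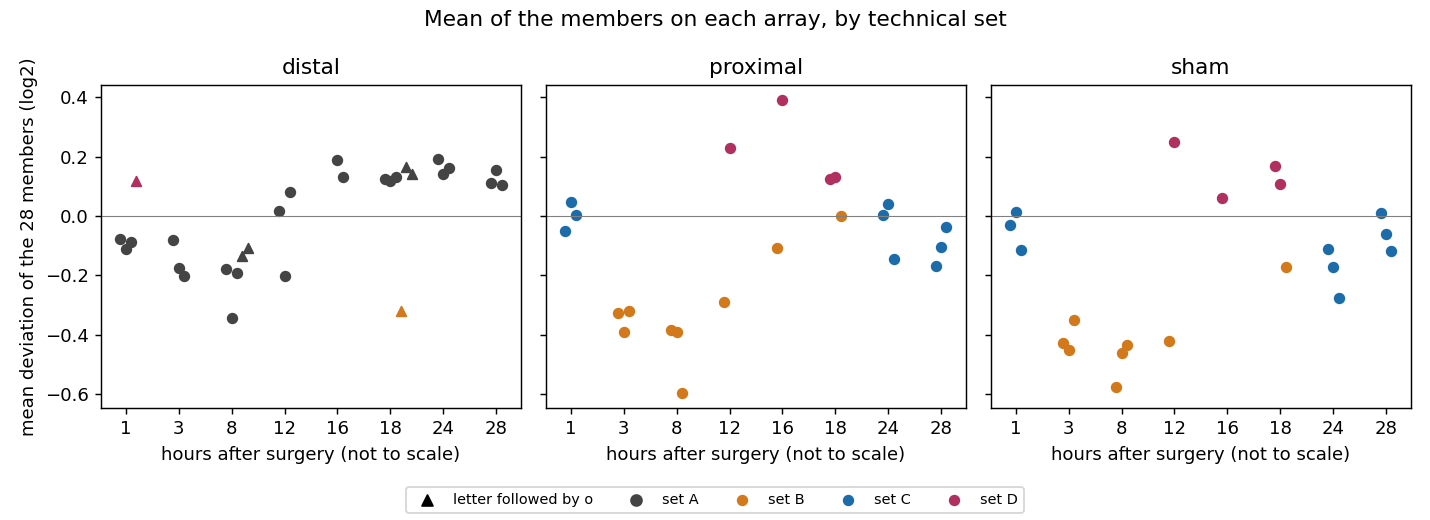
Each point is 1 array, at its hour after surgery, and its height is the mean over the 28 genes of the log2 deviation from each gene's mean in the distal arrays a to c, coloured by technical set. Distal arrays of set A step up between 8 and 16 h. Sham and proximal arrays lie partly by set, with set D above sets B and C, which overlap. Within set B the proximal arrays also climb with the hour. They stood at -0.38, -0.39 and -0.60 at 8 h, -0.29 at 12 h, -0.11 at 16 h and 0.00042 at 18 h.

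Late against early, 10 of the 28 differed between distal and sham, 5 of them higher and 5 lower in distal (30% of all genes called, median difference -0.046 for the 28 and -0.11 for all genes). The 5 higher were Idi1 (1.07 ± 0.25), Elovl6 (1.26 ± 0.31), Msmo1 (0.43 ± 0.073), Nsdhl and Fdft1, and the 5 lower were Mvk (-0.80 ± 0.17), Scd (-0.69 ± 0.20), Ggps1, Srebf2 and Sc5d. Idi1 and Elovl6 fell in sham, while their late change in the distal arrays a to c did not pass. Distal against proximal gave 4 higher and 5 lower (21.5%), and proximal against sham 1 higher, Msmo1, and 3 lower, Aacs, Srebf1 and Srebf2 (8.67%). Without the sham arrays with Atf3 at 9 or above, Fdft1 and Srebf2 no longer passed for distal against sham. Acly (-0.27 ± 0.10) and Insig1 (0.37 ± 0.15) then passed, and Idi1 was at 0.71 ± 0.25. For proximal against sham, Srebf2 no longer passed without those arrays. With all arrays kept and quantile-normalized again, distal against sham gave 10 higher and 3 lower, with a median of 0.15 for the 28. Of all genes 31% were then called, 12.9% higher. Distal against proximal gave 9 higher and 3 lower (median 0.16, against 0.0010 as deposited), where 27.1% were called, 14.1% higher. Proximal against sham gave 2 of each, where 14.8% were called. The balance of higher and lower genes thus depended on the scaling. These fits include the distal o arrays, of which 1 is in set B and 1 in set D; every other distal array is in set A, which holds no sham array, and the comparisons share arrays with one another.

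Hours that lie in 1 technical set within each surgery allow narrower comparisons. For 8 h against 3 h none of the 28 passed in sham (0% of all genes called) or in proximal arrays (0.0652%). The difference between distal and sham passed for none of the 28 there either (0.0407%, 1 of the 28 at an unadjusted p under 0.05). The other such comparison is 24 and 28 h against 1 h. In distal arrays a to c 17 of the 28 rose and 1 fell (37.3% of all genes called, 25.1% higher and 12.1% lower). In sham arrays none rose and 2, Elovl6 and Idi1, fell (1.88%), and in proximal arrays 3 rose, Scd, Acat2 and Msmo1, and 1, Elovl6, fell (20.3%). The difference between distal and sham passed for 4 genes, all higher in distal, where 6.04% of all genes were called: Srebf1 (0.84 ± 0.17, adjusted p = 0.00120), Dhcr7 (0.57 ± 0.17, adjusted p = 0.0276), Insig1 (0.64 ± 0.19, adjusted p = 0.0342) and Msmo1 (0.39 ± 0.12, adjusted p = 0.0388). The median of the 28 was 0.26 and that of all genes 0.050, and 22 of the 28 differences were positive. Set A and set C are still different sets, so surgery and set cannot be told apart here either. Without the sham arrays with Atf3 at 9 or above, the same 4 genes differed between distal and sham, and none of the 28 passed in sham (4 at an unadjusted limma p under 0.05).

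The values behind these 4 differ in kind. Srebf1 was at 9.11, 8.98 and 9.02 at 1 h and 9.55 to 9.77 at 24 and 28 h in distal arrays, and at 10.48, 10.16 and 10.14 and then 9.74 to 10.17 in sham arrays. The distal arrays began lower and at 24 and 28 h still lay below every sham array but 24 h b, while no rise passed in sham. Dhcr7 was at 9.81, 9.66 and 9.55 and then 9.98 to 10.36 in distal arrays, against 10.08, 10.05 and 9.99 and then 9.65 to 10.16 in sham. Insig1 was at 10.79, 10.55 and 10.55 and then 10.70 to 11.11 in distal arrays, against 10.99, 11.37 and 11.26 and then 10.73 to 10.96 in sham.

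Msmo1 was at 12.22, 12.41 and 12.23 at 1 h and 12.59 to 12.66 at 24 and 28 h in distal arrays, without overlap. In sham arrays Msmo1 was at 12.11, 12.23 and 12.17 and then 11.93 to 12.35, and in proximal arrays at 11.94, 12.12 and 12.09 and then 12.19 to 12.54. Proximal Msmo1 thus rose as well (0.29 ± 0.082, adjusted p = 0.00922). The difference between proximal and sham over these hours did not pass for any of the 28 (1.21% of all genes called, 1 of the 28 at an unadjusted p under 0.05). None of the 28 passed without the sham arrays with high Atf3 either (1 at an unadjusted p under 0.05).

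**Figure D4:**
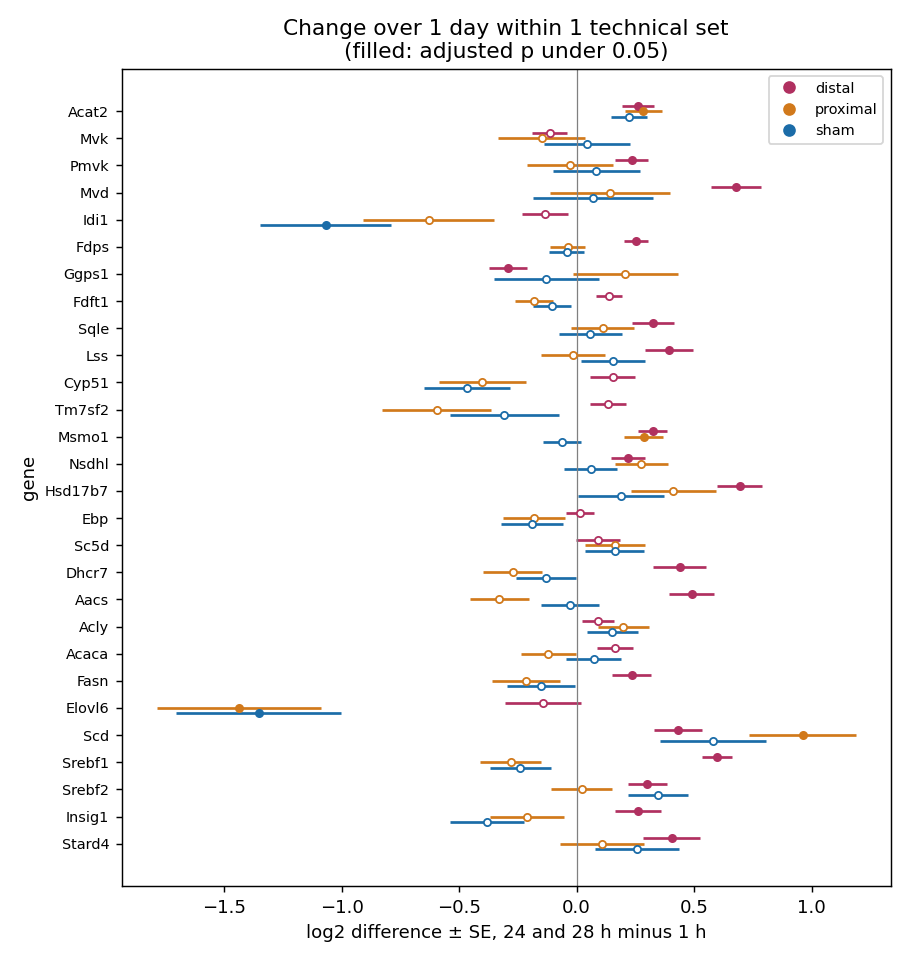
Each row is 1 of the 28 genes and each point the log2 difference of 24 and 28 h against 1 h with its standard error, by surgery, filled where the adjusted p was under 0.05. The distal points are filled for 18 genes, and the sham points only for Idi1 and Elovl6, which lie below 0.

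Proximal crush against sham at the same hours gave few calls. At the early hours Aacs rose (0.36 ± 0.082, adjusted p = 0.0449), where 0.130% of all genes were called. At the late hours Msmo1 rose (0.21 ± 0.054, adjusted p = 0.00679), where 5.35% were called higher and 4.36% lower (9.71%), and at the middle hours none did (0.057% higher, 0.057% lower, 0.114% in all; 3 of the 28 at an unadjusted p under 0.05). The early call was lost when any 1 of most of the 18 arrays was left out, and when sham 1 h a or sham 8 h b was left out 2 genes passed.

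By single hours, 8 h alone gave calls, Aacs (0.54 ± 0.14, adjusted p = 0.0361) and Srebf1 (0.55 ± 0.15, adjusted p = 0.0412), where 1.75% of all genes were called. Aacs was at 9.69, 9.76 and 9.60 on the proximal arrays and 9.10, 9.15 and 9.19 on the sham arrays of 8 h. Srebf1 was at 9.62, 9.45 and 9.52 against 8.88, 9.29 and 8.77. Neither pair of groups overlapped, all 6 arrays are in set B, and the 8 h count was 0 without proximal a, b or c, sham a or sham c of that hour.

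At 1, 3, 12, 16, 18, 24 and 28 h none of the 28 passed, where 0%, 0%, 0.0326%, 0.0489%, 1.51%, 1.21% and 4.47% of all genes were called. At an unadjusted p under 0.05 these hours had 0, 3, 1, 2, 3, 4 and 2 of the 28. At 12 h 3 genes passed without the library labelled sham 12 h b, where 4.26% of all genes were called, and the middle count was then 3 with sham 16 h a left out too and 12 h alone compared.

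At the late hours Msmo1 was at 12.31, 12.38 and 12.78 (18 h), 12.29, 12.37 and 12.24 (24 h) and 12.19, 12.54 and 12.38 (28 h) after proximal crush, and at 12.30, 12.38 and 12.25, then 12.04, 11.93 and 12.03, then 12.35, 12.22 and 12.11 after sham. The groups were apart at 24 h and overlapped at 18 and 28 h. Without the sham arrays with high Atf3, Msmo1 still passed (0.20 ± 0.064, adjusted p = 0.0403) and 6.87% of all genes were called; none of the 28 passed at 18, 24 or 28 h (2, 1 and 2 at an unadjusted p under 0.05). With the technical set as a block, 7 of the 28 passed late, all higher, where 19% of all genes were called. None of the 28 was without overlap between the 2 surgeries over the late arrays, against 0.88% of all genes higher and 0.538% lower.

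**Figure D5:**
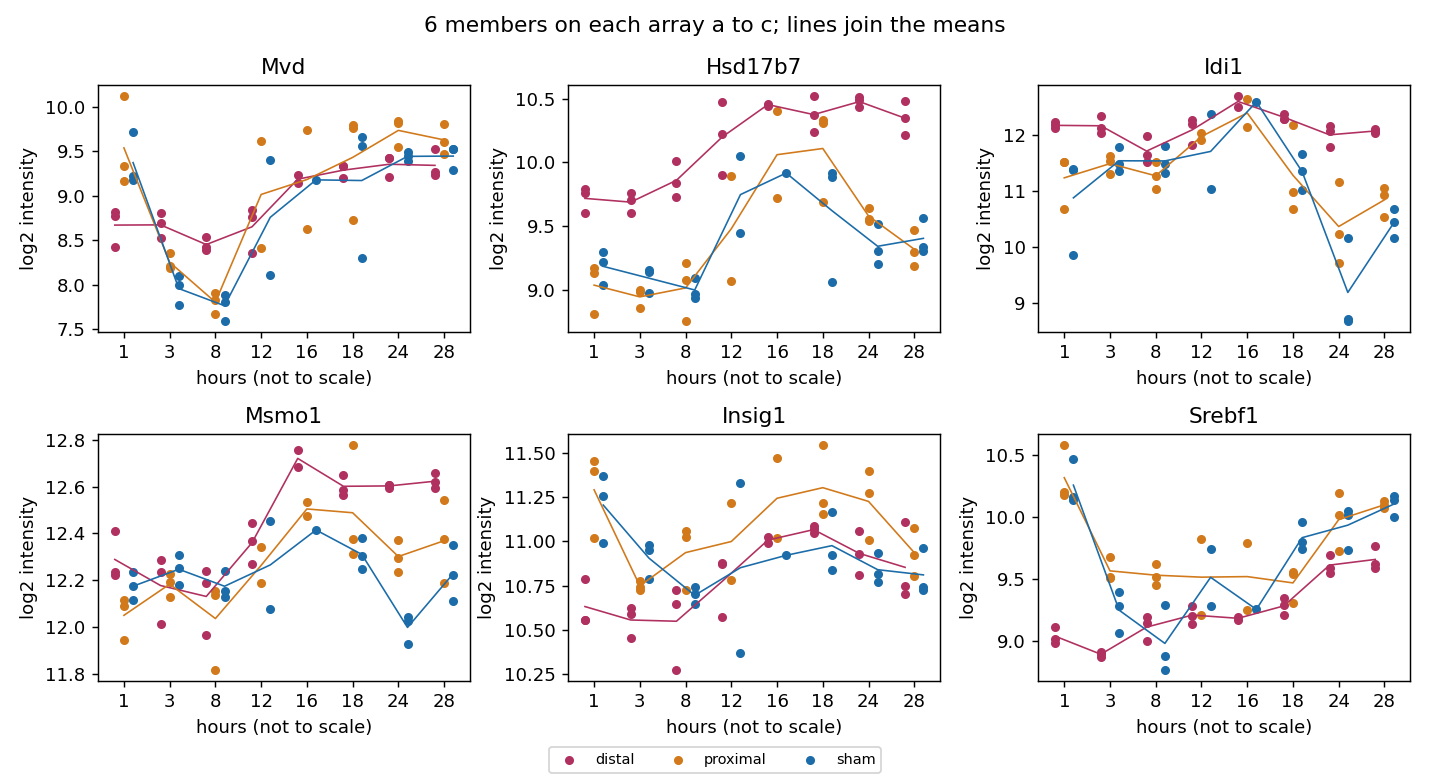
Each panel shows 1 gene, Mvd, Hsd17b7, Idi1, Msmo1, Insig1 or Srebf1, with its log2 intensity on each array a to c by hour after distal, proximal or sham surgery, and lines that join the means. Distal Hsd17b7 and Msmo1 climb to 16 h and stay high, while Idi1 falls back, and sham and proximal Mvd drop from 1 h to 8 h, across 2 technical sets, before they climb.

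In level at the late hours, distal arrays were above sham arrays for 11 of the 28 and below for 7. Of all genes 61.8% were called, 32.3% higher and 29.5% lower. The counts were 9 and 9 when quantile-normalized again (63.4% of all genes called), and 9 and 7 without the sham arrays with high Atf3. Surgery and set cannot be told apart here. Idi1 had the largest of these differences (1.81 ± 0.18, with 3 o arrays among the distal ones): it ran from 8.70 to 11.66 on the sham arrays, from 9.72 to 12.18 on the proximal arrays and from 11.78 to 12.38 on the distal arrays a to c. Srebf1 and Srebf2 were among the 7 that were lower.

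Some genes had further probe sets, and not all of these moved with the brighter one. Of the 28 genes 13 had 1 named probe set and 15 had several. Of 19 dimmer probe sets 17 were above the filter, and 15 of these 17 had the sign of the brighter one in the distal middle difference and 15 in the late difference. Both exceptions at the middle hours were Sc5d sets (-0.15 and -0.27, against 0.24), neither at an unadjusted limma p under 0.05. Late against early, dimmer probe sets of Mvk (-0.29) and Acaca (-0.56) went lower at an unadjusted limma p of 0.00032 and 0.0023, where the brighter ones did not pass, and a dimmer Srebf1 probe set differed by 0.083 where the brighter one rose by 0.51. The dimmer Lss set, at 0.087 against 0.46, likewise moved little late, while both dimmer Ggps1 sets were lower (-0.82 and -0.25).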

How the data were processed

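Values were the deposited log2 intensities of the authors, per array and probe set, made with RMA per the submitters' processing notes; the version of RMA is not given in those notes. Of 31099 probe sets, 57 controls were left out, 20826 had 1 gene symbol in GEO's platform annotation, 436 several and 9780 none; all 28 members matched RefSeq (build GRCr8) by Entrez ID.

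Genes were fitted with limma 3.58.1 (R 4.3.3; eBayes with trend) and Benjamini-Hochberg adjustment over 12276 genes above the 25th percentile of probe-set means. Distal windows, steps, F test and 24 and 28 h minus 1 h used the 23 distal arrays a to c, by hour means. Distal against sham used the 66 arrays without o for 24 and 28 h minus 1 h and for 8 h minus 3 h. Other comparisons used 1 mean per surgery and hour over 72 arrays, o arrays included. The scripts were tested on simulated data.

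Members and gene lists were chosen with earlier results of these data known. Every member is named, of the 2 other pathway lists the 6 and 4 called genes with the largest late distal difference, and of each marker list the 3 brightest.

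Array letters were not used to pair the arrays in the main fits. Same-letter distal arrays of different hours had a median correlation of -0.015. Same-letter proximal and sham arrays exceeded 0.1 in every pair only at 1 h (0.48 to 0.70), 12 h and 18 h (0.62 to 0.80). The 2 pairs at 12 h share 1 value by construction. With the letter as a block, proximal against sham at the early hours called 0.872% of all genes, against 0.13% without it. Alternatives covered the filter, normalization, array weights, letter and set blocks, probe sets, and arrays left out. The number of arrays limits precision.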

Additional observations from a re-analysis of the deposited data

Results flagged for a closer look

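Single arrays stood far from the others of their surgery and hour in 11 of the 84 sets of 4 to 6 values examined (Dixon's ratio of gap to range); chance gives about 1 in 20. The distal 18 h array do was low for Mvk (8.79), Mvd (8.17), Ggps1 (8.00), Sqle (11.11), Tm7sf2 (9.14) and Hsd17b7 (9.28); it is the 1 distal array in set B. The distal 1 h array do, the 1 distal array in set D, was high for Tm7sf2 (10.70) and Elovl6 (11.65). The other 3 were Ggps1 on distal 1 h c (9.25), Msmo1 on distal 1 h b (12.41) and Lss on distal 8 h b (9.93).

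The late minus early change differed between surgeries by a test of the difference (limma contrast) in these cases. Distal against sham gave Elovl6 1.26, Idi1 1.07, Msmo1 0.43, Nsdhl 0.34, Fdft1 0.20, Sc5d -0.29, Srebf2 -0.31, Ggps1 -0.57, Scd -0.69 and Mvk -0.80. Distal against proximal gave Elovl6 1.31, Srebf1 0.37, Aacs 0.34, Fdft1 0.27, Acly -0.28, Sc5d -0.37, Mvk -0.54, Scd -0.69 and Ggps1 -0.85. Proximal against sham gave Msmo1 0.32, Srebf2 -0.41, Srebf1 -0.42 and Aacs -0.50. For 24 and 28 h minus 1 h, distal against sham gave Srebf1 0.84, Insig1 0.64, Dhcr7 0.57 and Msmo1 0.39. Surgery and technical set cannot be told apart where distal arrays enter.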

How the results depend on the processing

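The late against early count in the distal arrays stayed between 18 and 23 called genes of the 28 under every alternative run. In the run without the arrays with high Ckm, late meant 24 and 28 h alone. With all distal arrays, the middle against early count was 4 (1.45% of all genes called), late against middle 3 (7.71%) and the F test 14 (18.5%). The step to 8 h then gave 0 (0.424%), to 16 h 0 (0.31%) and to 24 h 1 (2.07%). With arrays of all surgeries and o left out, middle against early gave 7 (1.34%) and the F test 13 (17.3%). Without the 8 arrays with high Ckm, an alternative chosen after seeing the data, middle against early gave 2 (1.47%). For proximal against sham, another quantile normalization gave 2 early, 2 middle, 3 late, and 1, 1, 2 and 1 at 8, 16, 18 and 24 h; the technical set as a block gave 3, 2 and 7, and 1, 2 and 1 at 16, 18 and 24 h. Over the early, middle and late windows, 1.34%, 0.88% and 14.7% of all genes were called with quantile normalization. With the set as a block these shares were 4.79%, 1.1% and 19%. The late proximal count was 6 with array weights (27.9% of all genes called), 2 with only the arrays compared (8.17%) and 2 with o left out (11.6%). Middle minus early, distal against sham, gave 5 with quantile normalization and 3 without sham 12 h b and 16 h a (chosen after seeing the data), which also gave 3 for proximal against sham at the middle hours and at 12 h and 3 for sham middle against early. Without the sham arrays with Atf3 at 9 or above (chosen likewise), 24 and 28 h minus 1 h in sham gave 0. Quantile normalization turned the step to 8 h from 2 lower to 1 higher and 2 lower (6.93% of all genes called). With the array letter as a replicate block, proximal against sham gave 2 late (10.8%). Middle minus early, distal against sham, then gave 1 (17.6%). The block moved no other count of the 28 by over 1.5 times.

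Leaving out 1 array in turn gave 7 to 17 for middle against early, 22 to 23 for late against early, 0 to 2 for the step to 8 h, 0 to 6 to 12 h, 0 to 4 to 16 h, 0 to 1 to 18 h and 0 to 2 to 24 h. For proximal against sham it gave 0 to 2 early, 0 to 1 middle, 1 to 2 late, 0 to 2 at 8 h, 0 to 3 at 12 h, 0 to 2 at 18 h and 0 to 1 at 24 h, and 0 to 3 for middle minus early, distal against sham. The set as a block could not be fitted for comparisons across sets, so it was not run there.

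Reversed signs were all of uncalled differences. With all distal arrays the late differences of Mvk and Elovl6 were -0.063 and -0.00483, and Acaca was -0.016 at the middle hours without high Ckm. Late proximal differences were Nsdhl -0.017 and Sc5d -0.013 with quantile normalization, and Nsdhl -0.051, Ebp -0.00921, Sc5d -0.019, Dhcr7 0.013 and Fasn 0.056 with array weights, and Ggps1 -0.12, Sc5d -0.068 and Scd -0.075 without the sham arrays with high Atf3. Leaving out 1 array gave -0.0021 to 0.071 for Ggps1 and -0.024 to 0.066 for Acaca (distal, middle) and -0.0052 to 0.17 for Elovl6 (distal, late). For proximal against sham late it gave Ggps1 -0.073 to 0.21, Nsdhl -0.059 to 0.056, Ebp -0.014 to 0.099, Sc5d -0.043 to 0.056, Dhcr7 -0.054 to 0.0075, Fasn -0.10 to 0.027, Elovl6 -0.31 to 0.011 and Scd -0.051 to 0.15. The cause of these moves was not tested.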
